A study of Homo sapiens with 40 samples.

Results

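The chromatin of BT474R and BT474 cells was compared after 24 h of EGF, as regions where ATAC-seq, which reads out DNA that a transposase can reach, gave a peak in both libraries of one line and in neither library of the other. The peaks of the 4 lists (2 libraries of EGF-BT474R and 2 of EGF-BT474) were merged where they shared at least 1 bp on chromosomes 1 to 22 and X, which gave 66939 regions. Of these, 6704 had a peak in 2 of 2 EGF-BT474R libraries and 0 of 2 EGF-BT474 libraries (10% of all merged regions) and are called BT474R-only. Another 9562 had a peak in 2 of 2 EGF-BT474 libraries and 0 of 2 EGF-BT474R libraries (14.3%) and are called BT474-only. Together these 16266 regions were separated by line, while 39192 regions (58.5%) had a peak in all 4 libraries. These counts follow from the rule that chose the regions and are a description, with no test. When each of the 4 lists was cut to its 51080 highest scoring peaks, 7708 regions were BT474R-only and 7454 BT474-only, so which class was the larger depended on the length of the lists.

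BT474 is an established HER2-overexpressing line from a ductal breast carcinoma, and BT474R is a trastuzumab-resistant line that the study's methods trace to clone 5 of BT474 cells grown in trastuzumab. Differences between the lines are therefore differences between 1 clone and its parent. Both lines were serum starved and sampled at baseline (0 h) or after EGF, HRG (heregulin) or vehicle (water) for 1, 12 and 24 h, which gave 20 groups of 2 libraries and 40 libraries in all. The study's methods say that treatments were run in duplicate, and the labels do not say whether duplicates were separate cultures on separate days, so p-values describe only these libraries.

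EGF binds EGFR, which pairs with HER2 and other ERBB receptors and signals through ERK and PI3K. ERK signaling leads to the making of FOS and JUN family proteins, which pair to form AP-1 and bind the short DNA motif TGANTCA, often at enhancers that open after growth factor treatment. DUSP, SPRY and SPRED proteins are made in response and damp the same pathway. In luminal breast cells, FOXA1 (a forkhead factor), GATA3 and the estrogen receptor mark enhancers of the luminal program, while CTCF binds sites that shape loops between distant DNA.

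Sequences are shown for the highest ranked separated regions, because they show which letters lie under the peaks that differed. A rank percentile is the position of a peak's score among all peaks of its own library, with 100 the highest. Each line holds 201 bases of hg38, plus strand, centered on the peak summit, and is named by the protein-coding gene with the nearest start, which need not be the gene that the region acts on. Capitals mark matches, on either strand, to any of 18 motifs. The AP-1 motif was searched as TGANTCA and the related CRE motif of cyclic AMP responsive factors as TGACGTCA. The CTCF core was CCANNAGNNGGC, and TFAP2, a factor of epithelial cells, had the motif GCCNNNGGC. The forkhead motif was written as TGTTTAC, while the letters AGATAA stood for the motif of the GATA family. ETS factors were given the letters CCGGAA, and RUNX factors were given TGTGGT in the same search. TEAD factors, which act with YAP, were searched as GGAATG, and the C/EBP family as TTGCNNAA. SP/KLF factors, common at promoters, were searched as GGGCGG, and the hypoxia factor HIF was searched with the letters GACGTG. The remaining motifs were those of STAT (TTCCNGGAA), IRF (GAAANNGAAA), NF-kB (GGGANNTTCC), the estrogen response element (GGTCANNNTGACC), the androgen or glucocorticoid response element (GNACANNNTGTNC) and GRHL factors (AACCGG). Matches to different motifs can overlap.

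The first 3 lines are BT474R-only regions that were already open only in BT474R at baseline (ARHGEF4 and TEX14) or had no baseline peak in either line (HMGCS1).
ARHGEF4, chr2:130829056-130829256: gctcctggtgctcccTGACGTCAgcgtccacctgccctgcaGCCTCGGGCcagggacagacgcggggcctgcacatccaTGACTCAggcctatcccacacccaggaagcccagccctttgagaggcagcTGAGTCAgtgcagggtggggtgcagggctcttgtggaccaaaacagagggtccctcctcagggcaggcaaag
TEX14, chr17:58679554-58679754: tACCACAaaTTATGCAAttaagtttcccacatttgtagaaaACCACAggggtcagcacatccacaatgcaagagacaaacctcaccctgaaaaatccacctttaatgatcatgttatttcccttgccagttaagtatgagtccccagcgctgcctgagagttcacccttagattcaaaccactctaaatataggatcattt
HMGCS1, chr5:43286723-43286923: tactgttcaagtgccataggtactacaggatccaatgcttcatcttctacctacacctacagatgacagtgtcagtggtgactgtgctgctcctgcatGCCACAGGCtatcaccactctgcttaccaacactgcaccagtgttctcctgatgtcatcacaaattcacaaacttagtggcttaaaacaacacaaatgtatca
The next 3 lines are BT474R-only regions with no peak in any baseline or 24 h control library and with an AP-1 match, taken by rank after their values were seen, because this combination set them apart from the other BT474R-only regions.
ABR, chr17:1111375-1111575: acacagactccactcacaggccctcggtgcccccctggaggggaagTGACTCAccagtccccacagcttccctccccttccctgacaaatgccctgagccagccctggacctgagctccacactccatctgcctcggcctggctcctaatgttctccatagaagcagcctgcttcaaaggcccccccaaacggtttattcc
STRA6, chr15:74193395-74193595: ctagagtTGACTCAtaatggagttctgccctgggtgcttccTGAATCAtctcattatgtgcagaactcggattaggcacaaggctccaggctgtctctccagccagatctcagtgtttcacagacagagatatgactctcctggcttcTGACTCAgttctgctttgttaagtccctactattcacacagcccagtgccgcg
TMEM63B, chr6:44012244-44012444: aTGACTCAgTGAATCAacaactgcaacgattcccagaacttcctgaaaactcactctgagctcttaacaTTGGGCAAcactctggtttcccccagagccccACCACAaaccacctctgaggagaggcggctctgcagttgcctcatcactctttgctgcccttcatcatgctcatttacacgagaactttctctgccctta
The next 2 lines are BT474R-only regions that had a peak in all 4 baseline libraries.
CLIC3, chr9:136996523-136996723: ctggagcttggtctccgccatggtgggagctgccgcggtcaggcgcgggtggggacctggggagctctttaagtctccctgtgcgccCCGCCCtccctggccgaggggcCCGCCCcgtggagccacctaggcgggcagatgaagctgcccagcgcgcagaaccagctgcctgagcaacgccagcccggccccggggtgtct
MDFI, chr6:41622372-41622572: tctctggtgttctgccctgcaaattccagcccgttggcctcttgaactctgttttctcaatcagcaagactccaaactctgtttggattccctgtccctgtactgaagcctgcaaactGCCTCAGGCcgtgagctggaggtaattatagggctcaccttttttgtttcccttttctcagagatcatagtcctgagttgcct
The next 3 lines are BT474-only regions, open only in BT474 at baseline too (TNFRSF19) or with no baseline peak in either line (ASIC2 and MOV10L1).
TNFRSF19, chr13:23715176-23715376: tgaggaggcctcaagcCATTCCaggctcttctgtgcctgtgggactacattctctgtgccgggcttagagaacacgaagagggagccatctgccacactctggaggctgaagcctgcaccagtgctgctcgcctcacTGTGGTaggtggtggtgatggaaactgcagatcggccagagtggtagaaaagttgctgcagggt
ASIC2, chr17:33235307-33235507: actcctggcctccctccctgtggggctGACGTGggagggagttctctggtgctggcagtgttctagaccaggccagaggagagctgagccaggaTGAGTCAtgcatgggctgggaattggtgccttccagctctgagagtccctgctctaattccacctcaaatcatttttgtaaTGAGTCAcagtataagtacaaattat
MOV10L1, chr22:50115834-50116034: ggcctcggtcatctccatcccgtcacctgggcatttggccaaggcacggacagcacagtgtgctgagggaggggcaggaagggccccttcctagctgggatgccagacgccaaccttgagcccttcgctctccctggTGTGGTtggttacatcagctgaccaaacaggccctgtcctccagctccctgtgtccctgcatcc
The next line is a BT474-only region that had a peak in all 4 baseline libraries. It is far from GOLGA6L6, the nearest protein-coding start, and is built of short tandem repeats.
GOLGA6L6, chr15:20341982-20342182: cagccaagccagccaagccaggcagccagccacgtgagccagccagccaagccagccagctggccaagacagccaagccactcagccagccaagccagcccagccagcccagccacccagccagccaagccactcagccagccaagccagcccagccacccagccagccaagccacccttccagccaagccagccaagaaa
The last line is the highest ranked BT474-only region with a CTCF core match among those that could be shown, also taken after its values were seen.
PRRT3, chr3:9947276-9947476: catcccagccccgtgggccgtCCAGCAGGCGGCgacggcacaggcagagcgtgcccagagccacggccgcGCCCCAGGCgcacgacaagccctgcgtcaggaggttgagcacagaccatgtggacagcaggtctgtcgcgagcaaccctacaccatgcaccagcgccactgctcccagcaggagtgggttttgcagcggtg

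The lists behind these regions were alike in size within each line. EGF-BT474 had 55225 and 56363 peaks and EGF-BT474R had 52126 and 51080, which is 55794 ± 805 against 51603 ± 740 (SD, n = 2 each). Both EGF-BT474R lists were shorter, and with 2 against 2 libraries an exact permutation test (two-sided, 6 arrangements) gave p = 0.333, the smallest p this design allows. The peaks covered 33.2 ± 0.0513 Mb in EGF-BT474 and 33.2 ± 0.622 Mb in EGF-BT474R (exact permutation p = 1). Replicates shared 85.0% and 85.6% of their combined covered bases, and libraries of different lines shared 64.7% to 65.3%. All 8 epithelial marker genes (EPCAM, CDH1, KRT8, KRT18, KRT19, CLDN3, CLDN4 and CLDN7) had a promoter region open in all 4 libraries. Of 12 leukocyte, endothelial and fibroblast genes, 2 had one (CDH5 and COL1A1), and PTPRC, CD3E, PECAM1, VWF, COL1A2, DCN and LUM were among those with no promoter peak in any of the 4. Over the other 36 libraries, BT474 lists held 47571 to 56846 peaks and BT474R lists 32479 to 56494. The shortest lists were those of BT474R at 12 h with vehicle or EGF (32479 to 40331 peaks), and the baseline replicates of BT474R held 53007 and 44546 peaks. The number of reads per library is unknown here, so weak peaks can be missing from a list for want of depth. Values from lists cut to equal numbers of peaks are given beside the results where they were computed.

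Separated regions held weaker peaks than shared ones and were narrower. The median rank percentile was 24.3 for BT474R-only regions and 23.3 for BT474-only regions, against 60.3 for regions open in all 4 libraries. The median widths of the merged regions were 385, 336 and 681 bp. Shared regions join the peaks of more libraries, so they are wider in part by construction. BT474R-only regions lay mostly in introns (50.8%) and between genes (30.0%), with 15.1% within 1 kb of a transcript start (95% Wilson interval 14.2% to 16.0%, counting error only). BT474-only regions were at transcript starts more often, at 20.5% (19.7% to 21.3%). Both shares lay under the 33.3% of all merged regions and the 43.0% of regions open in all 4 libraries. A fixed minimum score of 200 in every list means that a region near this limit can be present in one library and absent in another with little difference in signal.

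The study asked how the resistant line differs before and after ligand, so the separated regions were read in the baseline libraries, which the rule had not used to choose them. Of the 6704 BT474R-only regions, 2737 (40.8%) were open in 2 of 2 BT474R and 0 of 2 BT474 baseline libraries, against 8.18% of all merged regions. Of the 9562 BT474-only regions, 4535 (47.4%) were separated the same way at baseline, against 9.14% of all merged regions. The opposite separation at baseline was found for 1 BT474R-only region and 102 BT474-only regions.

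Among BT474R-only regions, 2524 (37.6%) had no baseline peak in either line and 40 had a peak in all 4 baseline libraries. Among BT474-only regions, 1282 (13.4%) had no baseline peak and 1050 (11.0%) had a peak in all 4. Over all merged regions these shares were 13.2% and 51.2%, so the BT474-only share without a baseline peak was close to that of all regions. A peak in 1 or 2 baseline libraries of the other line was present for 215 BT474R-only regions (3.21%) and 2732 BT474-only regions (28.6%). The shares depended on the BT474R baseline library used. With replicate 1 alone, which holds more peaks, 58.3% of BT474R-only regions were separated the same way, and with replicate 2 alone 58.9% of BT474-only regions were.

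**Figure D1:**
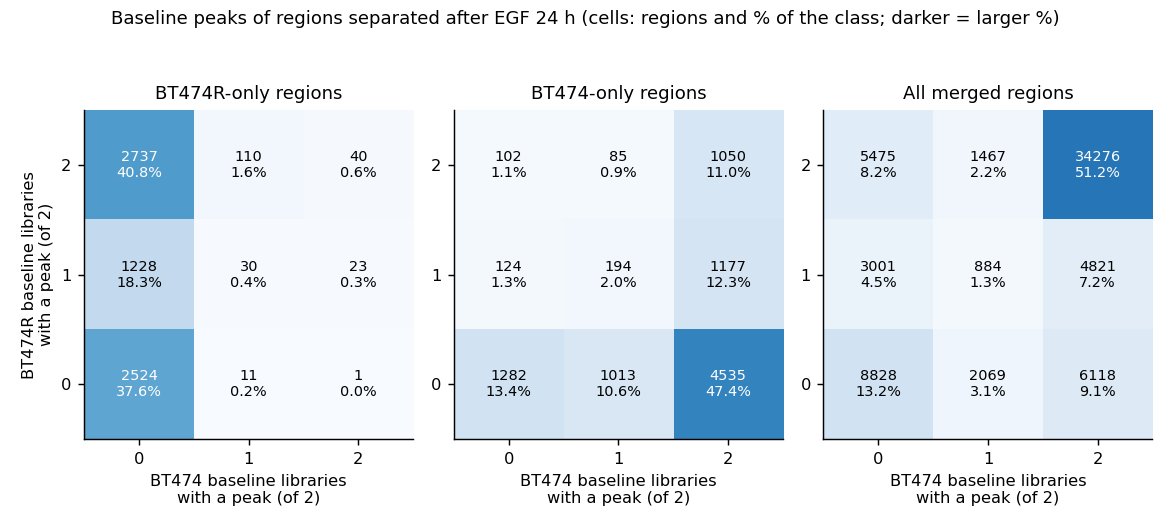
Each grid counts regions by the number of BT474R (vertical axis, 0 to 2) and BT474 (horizontal axis, 0 to 2) baseline libraries with a peak, for BT474R-only regions, BT474-only regions and all 66939 merged regions, with the number and percentage of the class in each cell. BT474R-only regions gather at 2 against 0 (2737) and 0 against 0 (2524), BT474-only regions at 0 against 2 (4535), and all merged regions at 2 against 2.

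In the vehicle control at 24 h, both classes were again separated the same way more often than all merged regions. This held for 2290 BT474R-only regions (34.2%), against 5.8% of all merged regions open only in BT474R. It held for 6625 BT474-only regions (69.3%), against 15% of all merged regions open only in BT474. Separation the same way both at baseline and in the 24 h control was found for 1899 BT474R-only regions (28.3%) and 4136 BT474-only regions (43.3%). In their own line, 7500 BT474-only regions (78.4%) had a peak in both 24 h control libraries, against 2490 BT474R-only regions (37.1%). A peak in the EGF libraries of the own line and in neither 24 h control library of that line was found for 3116 BT474R-only regions (46.5%) and 948 BT474-only regions (9.91%). The rule fixes the EGF libraries of this gain, and over all regions with a peak in both EGF libraries of the line the gain was seen for 6023 of 47774 (12.6%) in BT474R and 2959 of 51031 (5.80%) in BT474, counts that include the separated regions. The BT474R control lists were shorter (41833 and 45799 peaks) than the EGF-BT474R lists, while those of BT474 were 52331 and 50579, and this difference moves in the same direction.

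No peak in any of the 8 baseline and 24 h control libraries of either line was found for 2268 BT474R-only regions (33.8%) and 598 BT474-only regions (6.25%). The share was 10.1% of all merged regions, 6.32% of those with a peak in both EGF-BT474R libraries and 2.16% of those with a peak in both EGF-BT474 libraries. Among the 12 libraries at baseline, with vehicle at 24 h and with EGF at 24 h, these regions were open only with EGF. When each of the 12 lists was cut to its 41833 highest scoring peaks, an alternative chosen after seeing the data, 25.6% of 6328 BT474R-only regions and 3.41% of 6014 BT474-only regions had no peak in the 8 libraries. In the other treated libraries of BT474R, the 2268 regions were open in 23.5% at 1 h of EGF, 9.70% at 12 h of EGF and 28.1% at 24 h of HRG on average over the 2 libraries of each group. They were also open in 17.9% at 1 h of vehicle and in 0.154% at 12 h of vehicle. In BT474, their mean share was at most 4.70% in any group (HRG 12 h). The 598 BT474-only regions were open in 33.9% at 1 h of EGF, 52.2% at 12 h of EGF and 55.4% at 24 h of HRG in BT474.

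Line separation was then tested in the 36 libraries that the rule had not used, 18 of each line, with Fisher's exact test, which set the libraries with a peak in one line against those in the other (two-sided, Benjamini-Hochberg adjusted over all 66939 regions, threshold 0.05). Of the BT474R-only regions, 3800 (56.7%) were open in more BT474R libraries and 10 in more BT474 libraries, against 9.73% of all merged regions called higher in BT474R. Of the BT474-only regions, 7525 (78.7%) were called higher in BT474 and 13 higher in BT474R, against 18.4% of all merged regions called higher in BT474. The median BT474R-only region was open in 10 of 18 BT474R and 0 of 18 BT474 libraries, and the median BT474-only region in 0 of 18 and 17 of 18. All 18 libraries of the own line and none of the other line were open at 699 BT474R-only and 1885 BT474-only regions.

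The baseline classes behaved differently in this test. Of the BT474R-only regions separated the same way at baseline, 97.5% were called, and of those with no baseline peak 11.7%. For BT474-only regions these shares were 99.01% and 40.9%. The baseline libraries are among the 36, so the first share of each pair is high and the second low in part by construction. The test also pools all conditions, so a region open in only a few libraries of its line cannot pass. It takes duplicates and time points of the same clone and its parent as independent libraries, and takes no account of list length. Of all BT474R-only regions, 755 had no peak in any of the 36 other libraries, against 30 of the BT474-only regions. Without the 12 h libraries, chosen after seeing the data, 3641 and 5447 regions were called.

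**Figure D2:**
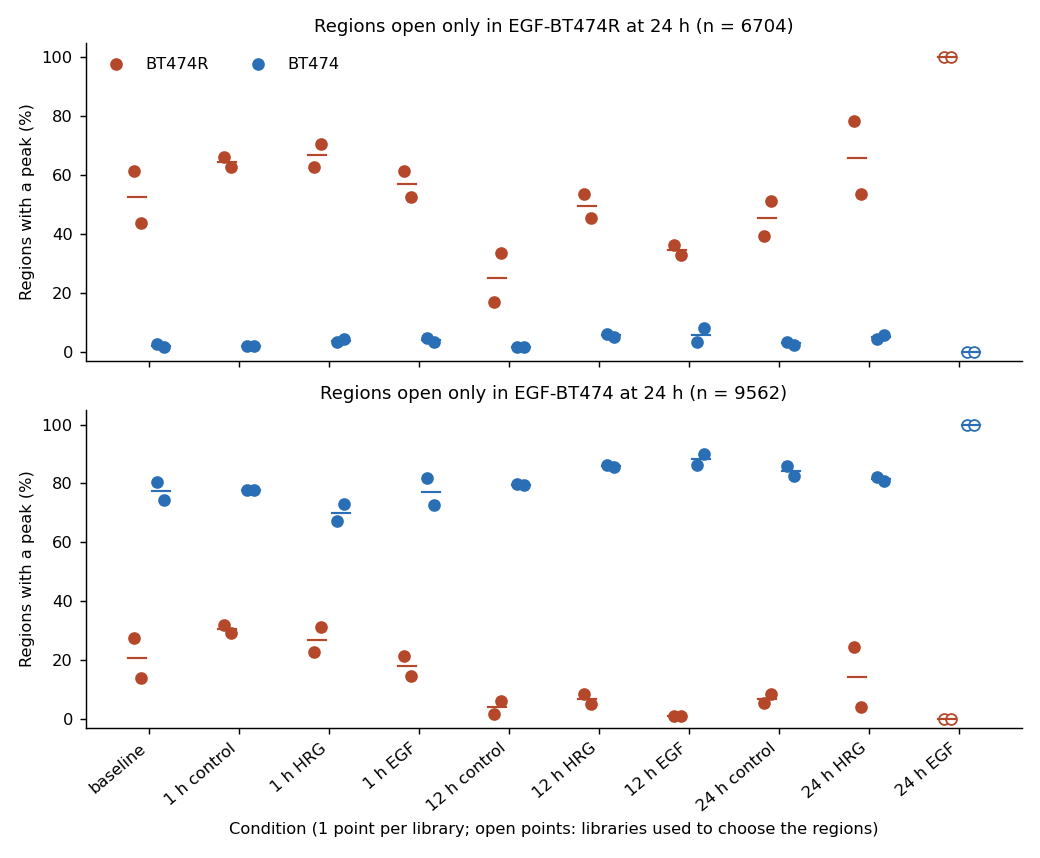
Percentage of the 6704 BT474R-only regions (upper panel) and the 9562 BT474-only regions (lower panel) with a peak in each library, by condition, with 1 point per library and a line at the mean of 2. BT474R libraries sit at 17.0% to 78.5% and BT474 libraries at 1.57% to 8.11% in the upper panel, and at 0.931% to 31.8% and 67.1% to 90.0% in the lower panel, the open points of EGF 24 h left aside.

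Across conditions, BT474-only regions were open far more often in BT474 than in BT474R libraries, and in BT474R least often at 12 h. Their mean share open in BT474 lay between 70.1% (HRG 1 h) and 88.2% (EGF 12 h). In BT474R it was 20.8% at baseline and 30.5%, 26.97% and 18.1% at 1 h of vehicle, HRG and EGF. At 12 h it was 3.95%, 6.79% and 1.04%, and at 24 h 6.88% with vehicle and 14.3% with HRG. The 12 h and 24 h control lists of BT474R are also the shorter ones, with 36405 ± 5552 and 43816 ± 2804 peaks (SD, n = 2). Of the regions open in all 4 EGF libraries, the lowest share in a BT474R library was 73.4%, in the shortest list. BT474R-only regions were open in 45.3% with vehicle and 66.0% with HRG at 24 h in BT474R, but the HRG replicates held 78.5% and 53.5%, a spread wider than that difference.

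The same rule applied to each condition gave other counts. At baseline 6434 regions were open only in BT474R and 6342 only in BT474. With vehicle at 24 h the counts were 4140 and 10530, and with HRG at 24 h 4337 and 6319. At 1 h the BT474R-only count was the larger with vehicle (10171 against 5438) and HRG (9895 against 5582), the opposite order to EGF at 24 h, and EGF gave 6574 and 7730. The counts at 12 h were 2071 and 12636 with vehicle and 3714 and 11537 with HRG. At 12 h of EGF the counts were 2224 and 15514, beside mean list lengths of 37841 peaks in BT474R and 54491 in BT474. Among the 3 treatments at 24 h, EGF gave the highest BT474R-only count (6704), and its BT474R lists were also the longest on average.

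Motif content set the classes apart. An AP-1 match within 100 bp of the summit was present in 29.9% of BT474R-only regions (95% Wilson interval 28.8% to 31.0%) and 11.8% of BT474-only regions (11.2% to 12.4%), against 17.2% of all merged regions. Outside promoters the shares were 31.0%, 13.1% and 21.6%. Most AP-1 matches of the BT474R-only class lay in regions without a baseline peak. Of the 2524 such regions, 1372 (54.4%) had a match, against 359 of the 2737 separated the same way at baseline (13.1%). Of the 2268 with no peak in the 8 baseline and 24 h control libraries, 1317 (58.1%) had one, against 15.5% of the other BT474R-only regions. BT474-only regions showed the same order at lower shares, with 22.5% of those without a baseline peak, 12.0% of those separated the same way and 6.48% of those open in all 4 baseline libraries. With 41833 peaks in each of 12 lists, the AP-1 shares of regions with no control peak were 60.9% for BT474R-only and 45.4% for BT474-only. A match is a description of the letters and not a measured binding site.

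Regions that gained a peak with EGF had AP-1 matches in both lines. Regions with a peak in both EGF libraries and neither control library at 24 h in both lines numbered 722, and 464 of them (64.3%) had an AP-1 match. Of the 3116 that gained a peak in BT474R and were BT474R-only, 1493 (47.9%) had one, as had 268 (28.3%) of the 948 that gained a peak in BT474 and were BT474-only. Among regions open in all 4 EGF libraries, the shares were close, at 1135 of 2316 (49.0%) for gains in BT474R and 871 of 1826 (47.7%) for gains in BT474. The 722 regions gained in both lines are counted in both of these sets, so the shares are close in part by construction. The BT474-only gains were weak, at a median rank percentile of 9.98 against 17.4 for the BT474R-only gains and 23.1 for gains in both lines.

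The CTCF core motif went the other way. It was found in 1.66% of BT474R-only regions (111 of 6704) and 6.83% of BT474-only regions (653 of 9562), against 5.43% of all merged regions, and outside promoters in 1.58%, 6.81% and 5.83%. GATA matches were present in 8.71% of BT474R-only and 12.3% of BT474-only regions (8.10% of all), and forkhead matches in 7.28% and 10.1% (7.80% of all). In the 1050 BT474-only regions that had been open in all 4 baseline libraries, the shares were 19.7% for GATA and 18% for forkhead. TFAP2 matches were present in 17.0% of BT474R-only and 11.9% of BT474-only regions (17.3% of all). ETS and SP/KLF matches, which are common at promoters, were at 3.86% and 7.995% of BT474R-only regions and 3.79% and 10.9% of BT474-only regions, under the 7.42% and 20.6% of all regions. Outside promoters, shares of BT474R-only, BT474-only and all regions were 9.45%, 13.6% and 10.2% for GATA. They were 7.68%, 11.2% and 9.85% for forkhead, and 16.4%, 10.6% and 14.7% for TFAP2. For ETS they were 3.64%, 2.79% and 3.50%, and for SP/KLF 6.17%, 6.54% and 8.05%. So for GATA, TFAP2 and ETS the order of BT474R-only against all regions turned outside promoters. The STAT, IRF and NF-kB motifs differed little from all regions, with 1.01%, 1.78% and 0.701% of BT474R-only regions against 0.847%, 1.58% and 0.837% of all regions. The estrogen response element as searched was in 0 of 6704 BT474R-only regions and 12 of 9562 BT474-only regions.

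**Figure D3:**
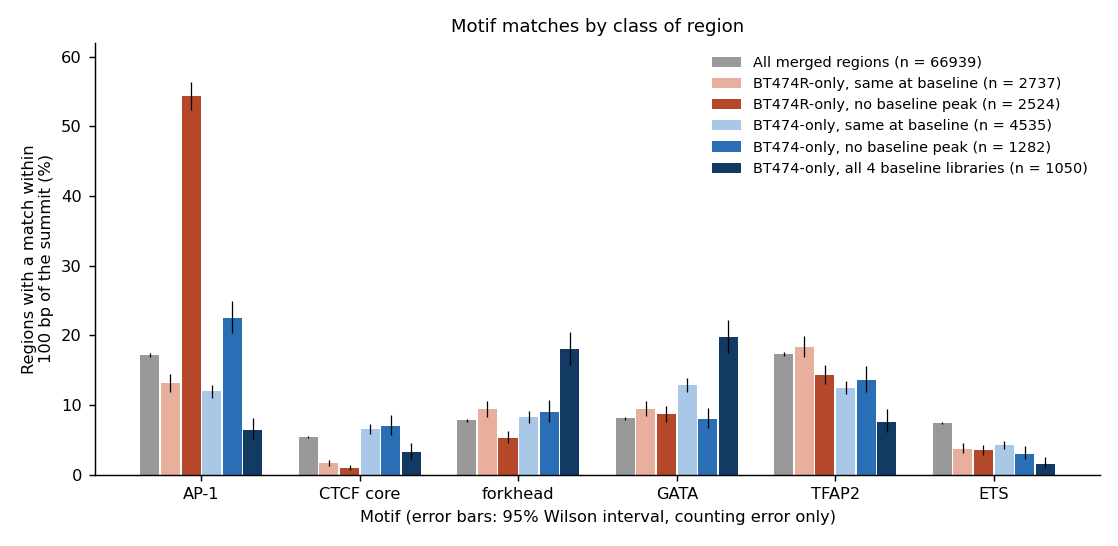
Percentage of regions with a match to each of 6 motifs within 100 bp of the summit, for all merged regions and for 5 classes of separated regions, with 95% Wilson intervals that cover counting error only. AP-1 stands at 54.4% in BT474R-only regions without a baseline peak and at 17.2% in all merged regions, CTCF core is lowest in both BT474R-only classes, and forkhead and GATA are highest in BT474-only regions open in all 4 baseline libraries.

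The 4 highest ranked BT474R-only regions among those separated the same way at baseline were also open in all 18 other BT474R libraries. The region 7.76 kb before a start of ARHGEF4, a guanine nucleotide exchange factor (chr2:130827610-130829590, intergenic), ranked at the 98.9 and 99.1 percentile in the EGF-BT474R libraries. Its sequence holds a CRE match and AP-1 matches. It was open in 18 of 18 other BT474R and 0 of 18 other BT474 libraries (Fisher's exact test, adjusted p = 5.35e-09). The same counts held for a region within 1 kb of a transcript start at TEX14 (chr17:58678968-58680650, ranks 98.4 and 98.5). They held too for one at a start of SCIRT, a long noncoding RNA gene (chr6:43999880-44000939, ranks 95.2 and 95.6). A region in the pseudogene PKD1P6 also had them, with RRN3 as nearest protein-coding start (chr16:15142545-15145310, ranks 97.8 and 97.3). Such loci have near-identical copies, and how reads with several matches were placed is not given in the sources used here, so that value is uncertain.

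Of the 4 strongest BT474R-only regions without a baseline peak, 2 had HMGCS1 as the nearest protein-coding start and 1 lay at FADS2. The first 2 lay next to each other, 28.6 and 26.4 kb past the start of HMGCS1, which makes the HMG-CoA used for cholesterol. Neither of their summits lay within a gene. The first (chr5:43283110-43285330) ranked at 95.9 and 97.0, and the second (chr5:43285455-43287308) at 88.1 and 90.1. Both were closed in the 4 baseline libraries and in BT474R vehicle replicate 1 at 24 h, and open in replicate 2 at ranks of 87.6 and 67.7. Over the other 36 libraries the first was open in 9 of 18 BT474R and 3 of 18 BT474 libraries, which did not pass the test (adjusted p = 0.216, Fisher's exact test). The second was open in 6 of 18 BT474R and 4 of 18 BT474 libraries and did not pass either. A region within 1 kb of a transcript start of FADS2, a fatty acid desaturase (chr11:61855004-61856997, ranks 87.0 and 86.7), was open in 8 of 18 and 0 of 18 (adjusted p = 0.0115, Fisher's exact test). The fourth was another region in SCIRT (chr6:44007584-44009197, ranks 88.1 and 87.1), open in 6 of 18 and 0 of 18 (adjusted p = 0.0616, Fisher's exact test). Of these 4, only that at FADS2 had an AP-1 match.

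BT474R-only regions that had been open in all 4 baseline libraries were few and unequal there. The region at the start of CLIC3 (chr9:136995850-136997305) ranked at 84.4 and 85.3 in EGF-BT474R, at 85.2 and 68.2 in BT474R baseline and at 9.72 and 17.9 in BT474 baseline. Regions near MDFI, in ZNF318 and near ATXN2L showed the same order, with BT474 baseline ranks between 0.824 and 22.99 and BT474R baseline ranks between 60.5 and 73.6. So these regions had stronger peaks in BT474R before EGF as well.

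Among BT474-only regions, the promoter of MAP1LC3A, which encodes the autophagosome protein LC3A, ranked highest. This region (chr20:34557925-34559498) ranked at 97.7 and 97.8 in EGF-BT474 and at 98.5 and 98.5 in BT474 baseline, with no peak in any of the 20 BT474R libraries. A region 136 kb from the nearest start, that of TNFRSF19 (chr13:23714913-23716695, ranks 95.8 and 95.5), and a pseudogene region near GOLGA6L6 (chr15:20272335-20273349, ranks 93.3 and 93.4) were also open in 18 of 18 other BT474 and 0 of 18 other BT474R libraries (adjusted p = 5.35e-09, Fisher's exact test). The region in TSHZ2 (chr20:53336133-53337628, ranks 94.4 and 95.2) was open in 18 of 18 and 1 of 18.

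The BT474-only regions without a baseline peak were weaker. The first 4 by rank lay in ASIC2 (chr17:33235260-33235692, ranks 43.0 and 47.8), MOV10L1 (chr22:50115709-50116076, ranks 48.0 and 40.03) and NAV2 (chr11:19723537-19724126, ranks 48.0 and 39.3) and before HRH1 (chr3:11096610-11097125, ranks 41.4 and 46.2). All 4 were open in 10 to 14 of the 18 other BT474 libraries and in none of the BT474R libraries (adjusted p at most 0.00172, Fisher's exact test), and each had a peak in BT474 vehicle replicate 1 at 24 h. So the strongest members of this class were seen in BT474 under other conditions too.

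The BT474-only regions open in all 4 baseline libraries (1050) had a peak in BT474R at baseline and none in EGF-BT474R at 24 h. Of all 9562 BT474-only regions, 367 (3.84%) had a peak in both BT474R vehicle libraries at 24 h. Most of the 1050 were therefore not open in both vehicle libraries either, and a part of EGF in the change was not tested. The region 25.8 kb past the start of RHOB, an endosomal small GTPase (chr2:20472007-20473825), ranked at 95.7 and 95.2 in EGF-BT474 and at 95.4 and 95.5 in BT474 baseline. In BT474R it ranked at 70.4 and 35.6 at baseline and at 37.3 and 21.0 with vehicle at 24 h, and had no peak with EGF at 24 h. A region in C14orf132 (chr14:96064877-96066379) ranked at 95.01 and 93.8 in EGF-BT474, at 35.5 and 28.6 in BT474R baseline and had a peak in 1 of 2 BT474R vehicle libraries at 24 h, at a rank of 1.67. Of the other 2, near GOLGA6L6 on chromosome 15, the first (chr15:20340265-20342637) was open in all 36 other libraries and absent only from the EGF-BT474R lists at 24 h. Its short repeat sequence and the pseudogene copies around it make its reads uncertain to place.

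**Figure D4:**
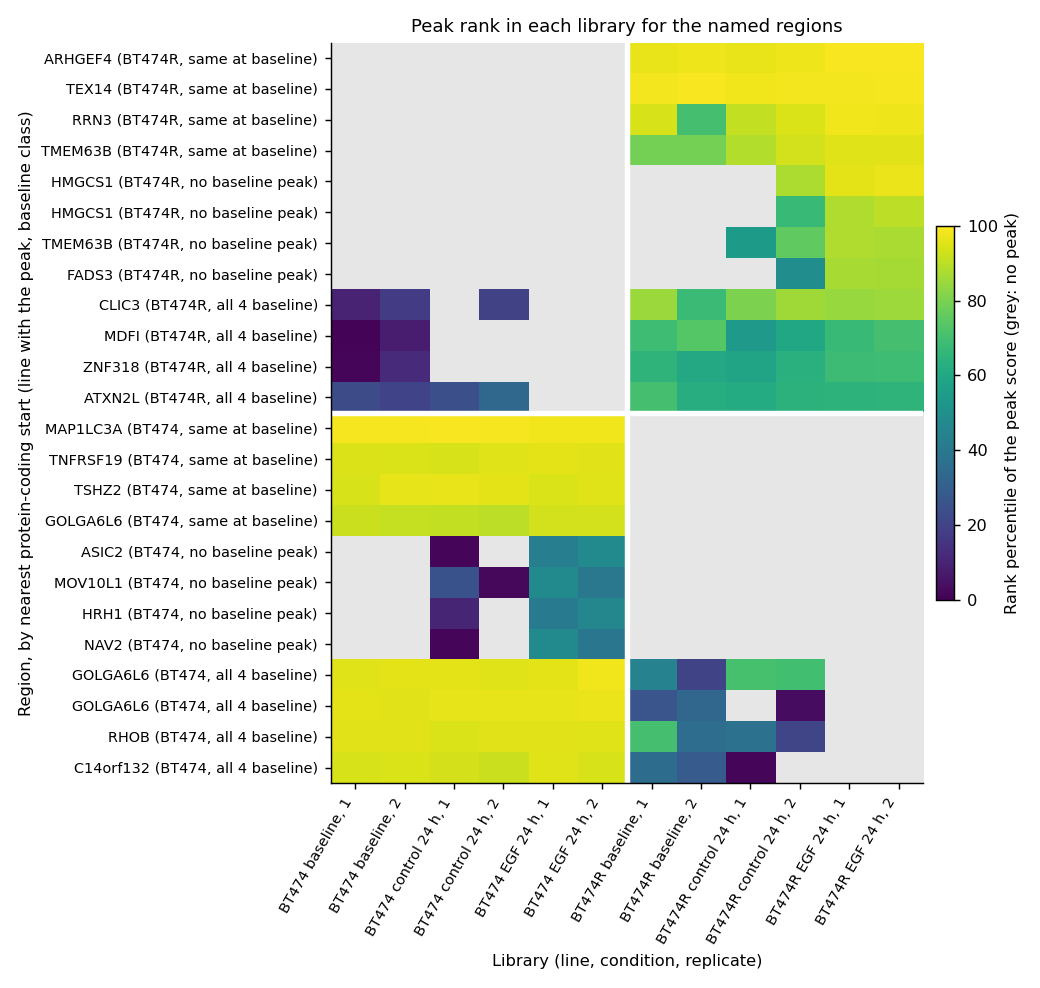
Rank percentile of the peak score (color, 0 to 100, grey where a library has no peak) in 12 libraries (columns) for the 24 named regions (rows, by nearest protein-coding start). Rows in the upper block have peaks only in the EGF-BT474R columns among the EGF libraries and rows in the lower block only in the EGF-BT474 columns, and the HMGCS1 and FADS2 rows (the latter listed by its nearest start, FADS3) are grey at baseline in both lines.

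Several genes gathered many separated regions, counted as regions whose nearest protein-coding start within 100 kb was that of the gene. Of 19618 protein-coding genes, 3569 (18.2%) had at least 1 BT474R-only region and 4804 (24.5%) at least 1 BT474-only region. AUTS2, a chromatin regulator of neurons, had the most BT474R-only regions (12 of 55 merged regions), along with 8 BT474-only regions. IQSEC1 had 11 of 34 and ARHGEF4 10 of 20, and PLB1, MAD1L1 and KCNMA1 had 9 each and ABTB3 and MICAL2 8 each. For MAD1L1, a spindle checkpoint protein, 7 of 9 regions were separated the same way at baseline, and the median region was open in 16 of 18 other BT474R libraries. For PLB1, 6 of 9 had no baseline peak, and the median was 3 of 18.

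Of the 10 genes with the most BT474-only regions, 5 lie on chromosome 20, where TSHZ2 had 17 of 29 merged regions, PREX1 16 of 39, SULF2 14 of 37, and ZFP64 and BCAS1 9 each. PREX1 is an exchange factor for RAC that is highly expressed in luminal breast cancer. COL22A1 had 13 of 18, NEDD4L 10 of 41, and TBX3, SIAH2 and FOXN3 9 each. TBX3, a luminal transcription factor, had no BT474R-only region, and 7 of its 9 were separated the same way at baseline. The median region of TSHZ2, PREX1, COL22A1, TBX3, ZFP64 and SIAH2 was open in 18 of 18 other BT474 libraries and in 0 to 1 of 18 other BT474R libraries. Long genes in open chromatin hold more regions, so these counts are not corrected for size.

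A gene's own promoter was taken as within 1 kb of a start of its protein-coding transcripts. Of 14 ERBB receptors and ligands, none had a BT474R-only promoter region and 3 a BT474-only one (ERBB4, BTC and NRG2), against 2.27% and 5.35% of all protein-coding genes. Counting any separated region, 3 of the 14 (21.4%) had a BT474R-only and 8 (57.1%) a BT474-only region, against 18.2% and 24.5% of all genes. The BTC promoter region, of the ligand betacellulin, ranked at 48.8 and 54.9 in EGF-BT474, and that of ERBB4 at 27.1 and 25.2. Both regions had no peak in any BT474R library and a peak in 18 of 18 other BT474 libraries (adjusted p = 5.35e-09, Fisher's exact test). Each of these promoters also held a region open in all 4 EGF libraries. The NRG2 region, at a neuregulin gene, was open in 18 of 18 and 4 of 18 (adjusted p = 1.4e-05, Fisher's exact test). The start of EGFR was open in all 4 libraries, and 6 BT474R-only regions and 1 BT474-only region had their nearest start in EGFR. These 6 and the single regions of DUSP4, DUSP6, SPRY4, PFKFB3 and INSIG1 given further on were chosen after their values were seen.

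Of the EGFR regions, 5 were already separated the same way at baseline. They lay 5.52, 12.2 and 28.2 kb after the nearest start (chr7:55024260-55024781, chr7:55031092-55031592 and chr7:55047028-55047485) and, in later parts of the gene, at (chr7:55178878-55179687 and chr7:55209285-55209742). The first 3 were open in 18 of 18 other BT474R libraries and the other 2 in 16 and 17, with 0 of 18 BT474 libraries for each (adjusted p at most 5.32e-07, Fisher's exact test). Their ranks in EGF-BT474R ran from 39.2 to 69.1 and in BT474R baseline from 26.4 to 69.4, so the ranges with and without EGF overlapped. The sixth (chr7:55158614-55159125, ranks 28.1 and 43.7), with an AP-1 match, was open in EGF-BT474R at 24 h and in none of the other 36 libraries.

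The genes of ERK feedback held the largest share of genes with a BT474R-only region among the 15 lists searched. Of 15 genes, 10 (66.7%) had at least 1, for 30 regions in all, and 4 (26.7%) had a BT474-only region, for 7 in all, against 18.2% and 24.5% of all protein-coding genes. Lists of other kinds also lay above all genes, with a BT474R-only region in 4 of 8 epithelial marker genes (50%) and 9 of 18 membrane and mucin genes (50%). A promoter region was open in all 4 libraries for 62.5% of all genes. The shares were 93.3%, 93.5% and 87.5% of ERK feedback, hypoxia and lipid synthesis genes. None of the 15 ERK feedback genes had a separated region within 1 kb of a protein-coding transcript start, where 14 of 15 were open in all 4 libraries, while a BT474R-only region lay at another transcript start of DUSP10 and a BT474-only one at another of LRIG1. Of the 30, 11 were separated the same way at baseline, 12 had no peak in the 8 baseline and 24 h control libraries and 7 had an AP-1 match, against 40.4%, 33.2% and 28.7% of all BT474R-only regions near protein-coding genes. The 30 came from SPRED2 (7), DUSP4 (6), DUSP6 (4), SPRY4 (3), DUSP1, DUSP5, DUSP10 and ERRFI1 (2 each) and SPRY1 and SOCS3 (1 each). The DUSP6 region in an exon (chr12:89348855-89349711) ranked at 76.6 and 74.8 in EGF-BT474R, at 62.5 and 67.4 in BT474R baseline and at 31.2 and 34.0 with vehicle at 24 h, and was open in 18 of 18 and 0 of 18 other libraries. The DUSP4 region 17.3 kb past the gene's start (chr8:29330967-29332237) ranked at 78.4 and 82.6, at 44.05 and 6.73 in baseline and at 6.64 and 41.3 with vehicle. The BT474R vehicle lists were shorter than the EGF lists, so ranks in them are not on one scale. SPRY4 had a region 17.5 kb before its start (chr5:142341912-142342733) open in 18 of 18 BT474R and 1 of 18 BT474 other libraries.

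The AP-1 and immediate early genes themselves were open at their promoters in all 4 libraries, 17 of 17. Separated promoter regions beside these were BT474-only and belonged to FOSL2 and EGR3 (2 of 17, 11.8%, against 5.35% of all genes). The BT474R-only regions of this list numbered 5 (2 near JUN and 1 each near ATF3, IER2 and IER3). All 5 had no peak in the 8 baseline and 24 h control libraries and 3 had an AP-1 match, against 33.2% and 28.7% of all BT474R-only regions near protein-coding genes. None was called higher in BT474R over the other 36 libraries, and that of ATF3 was called higher in BT474 (0 of 18 against 7 of 18, adjusted p = 0.0273, Fisher's exact test). The FOSL2 regions were open in 18 and 14 of 18 other BT474 and 12 and 8 of 18 other BT474R libraries, which did not pass (adjusted p = 0.0616 and 0.245, Fisher's exact test). The EGR3 promoter region was open in 16 of 18 BT474 and 0 of 18 BT474R other libraries.

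Hypoxia and glycolysis genes had BT474R-only regions in 15 of 31 (48.4%, against 18.2% of all genes) and BT474-only regions in 8 of 31 (25.8%, against 24.5%). Of their 37 BT474R-only regions, 19 (51.4%) had no peak in the 8 baseline and 24 h control libraries and 16 (43.2%) had an AP-1 match. The shares over all BT474R-only regions near protein-coding genes were 33.2% and 28.7%. The promoter of CA9, a carbonic anhydrase and standard marker of hypoxia, was BT474R-only at ranks of 79.97 and 81.2 and was open in 11 of 18 other BT474R and 0 of 18 other BT474 libraries (adjusted p = 0.0006, Fisher's exact test). The promoter of CA12, another carbonic anhydrase, went the other way at ranks of 70.7 and 68.8, with 0 of 18 and 18 of 18. PFKFB3, which makes the activator of phosphofructokinase, had 5 BT474R-only regions, all with an AP-1 match and without a peak in the 8 libraries. These 5 are among the 19 and the 16 given above. PLB1, which is not in this list, also had 5 without a peak in the 8 libraries, of which 2 had an AP-1 match. The PFKFB3 regions ranked between 20.7 and 59.0, and 1 of the 5 passed the test in the other 36 libraries. EPAS1 and EGLN3, an oxygen-regulated factor and one of its hydroxylases, had 7 BT474R-only regions each, and PFKFB3 and EGLN3 had 2 BT474-only regions each. VEGFA, EGLN3 and HK1 had BT474-only promoter regions. Those of ENO1 and ALDOA were BT474R-only, with 2 and 4 of 18 other BT474R libraries open, and did not pass. The promoters of VEGFA, EGLN3, HK1, ENO1 and ALDOA, unlike those of CA9 and CA12, also held a region open in all 4 EGF libraries. Of the 31 genes, 3 (9.68%) had a BT474R-only and 4 (12.9%) a BT474-only promoter region, against 2.27% and 5.35% of all genes.

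Lipid synthesis genes had BT474R-only regions in 9 of 16 (56.2%) and BT474-only regions in 4 of 16 (25%), against 18.2% and 24.5% of all genes. FASN, the fatty acid synthase (ranks 22.1 and 8.84), had a BT474R-only region within 1 kb of a start, beside a promoter region open in all 4 libraries. It did not pass in the other libraries, with 5 of 18 against 5 of 18. ACACA and ELOVL6 had BT474-only promoter regions that passed, at 0 and 3 of 18 BT474R and 18 and 17 of 18 BT474 libraries. The promoter of ACACA, unlike that of ELOVL6, also held a region open in all 4 EGF libraries. Each class had promoter regions at 2 of 16 genes (12.5%), against 2.27% (BT474R-only) and 5.35% (BT474-only) of all genes. Past the end of INSIG1, a sterol sensor, lay a BT474R-only region (chr7:155312563-155313996) without a baseline peak, open in 3 of 18 other BT474R libraries and 0 of 18 other BT474 libraries, which did not pass.

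Of 26 luminal and steroid receptor genes, 13 (50%) had a BT474-only region, for 36 in all, and 11 (42.3%) a BT474R-only region, for 21 in all, against 24.5% and 18.2% of all protein-coding genes. Promoter regions of ESR1 (the estrogen receptor, ranks 61.9 and 68.2), GREB1 (its target gene, 49.3 and 46.5) and GATA3 (17.1 and 15.4) were BT474-only. In the other libraries they were open in 18, 18 and 17 of 18 BT474 and in 3, 3 and 0 of 18 BT474R libraries (adjusted p at most 3.03e-06, Fisher's exact test). All 3 genes also had a promoter region open in all 4 libraries, so part of each promoter was shared. TFF3, an estrogen-responsive secreted peptide, had 5 BT474R-only regions, and XBP1 and GRHL1 had 3 each; these 3 genes were picked after their values were seen.

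G1 cell cycle genes had BT474-only regions in 7 of 19 (36.8%), with CCNE2 at its promoter, and BT474R-only regions in 2 (10.5%), against 24.5% and 18.2% of all genes. Basal, mesenchymal and EMT genes had them in 12 of 23 (52.2%) and 6 (26.1%), with ZEB1 and CDH2 at BT474-only promoters, of which that of CDH2 did not pass (5 of 18 BT474R against 9 of 18 BT474 libraries). Of 18 membrane and mucin genes, 3 (16.7%) had a BT474-only promoter region, against 5.35% of all protein-coding genes. They were MUC1, SDC4 and ACTN1, each with 0 of 18 other BT474R libraries open at that region. Of 20 TGF-beta genes, 1 had one (SMAD3, 5%), and of 26 receptor kinase and PI3K genes, 2 did (AXL and INSR, 7.69%). Both promoter shares were near the 5.35% of all genes. Counting any separated region, the BT474R-only and BT474-only shares were 35% and 50% of TGF-beta genes. They were 42.3% and 38.5% of receptor kinase and PI3K genes, and 50% each of membrane and mucin genes. All of these lay above the 18.2% and 24.5% of all genes. Of 39 interferon and antigen genes, 5 (12.8%) had a BT474R-only region and 7 (17.9%) a BT474-only region, both under the shares of all genes, and the only separated promoter region was BT474-only, at ISG15 (ranks 31.5 and 41.4, 18 of 18 against 0 of 18). NF-kB genes and chemokines had BT474R-only promoter regions at CXCL2 and ICAM1, neither of which passed (8 of 18 against 1 of 18 and 1 of 18 against 0 of 18), and a BT474-only one at ACKR3. The CD14 promoter was the only BT474-only one among markers of other cell types. The promoters of CCNE2, ZEB1, CDH2, MUC1, SDC4, ACTN1, SMAD3, INSR, ISG15 and ACKR3 also held a region open in all 4 EGF libraries, so part of each was shared. Those of AXL, CXCL2, ICAM1 and CD14 did not. BT474-only promoter shares were 5.26% for G1, 8.70% for basal, 2.56% for interferon and 4.55% for NF-kB genes. The BT474R-only share of NF-kB genes was 9.09%, against 2.27% of all genes. These lists hold long genes and genes picked with earlier results of these data known, so the shares are a description.

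Separated regions were spread unevenly over the genome. The share of merged regions that were BT474R-only ran from 6.08% on chromosome 11 to 17.9% on chromosome 21, with 15.7% on chromosome 13, 14.7% on chromosome 22 and 14.4% on chromosome 1. The BT474-only share ran from 6.10% on chromosome 21 to 19.6% on chromosome 3, with 19.0% on chromosome 5 and 18.9% on chromosomes 8 and 14. On chromosome 21, 74.5% of the separated regions were BT474R-only, and on chromosome 11, 25.1%. The same lean was present at baseline, where 13.6% of the merged regions of chromosome 21 were open only in BT474R and 3.63% only in BT474.

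Within chromosomes the lean was stronger. Over 288 windows of 10 Mb with at least 50 merged regions, the BT474-only share had a median of 14.0% and a maximum of 52.2% (35 of 67 regions at 100 to 110 Mb of chromosome 5, where 1 was BT474R-only). On chromosome 4, at 160 to 170 Mb, it was 42.3% (44 of 104), against 1 BT474R-only region. At baseline these windows had 35.8% and 33.7% of their merged regions open only in BT474. The BT474R-only share reached 26.1% at 80 to 90 Mb of chromosome 6 and 25.6% (117 of 457) at 30 to 40 Mb of chromosome 1, against a median of 9.11%. DNA copy number was not analysed here, and its part in these shares was not tested.

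**Figure D5:**
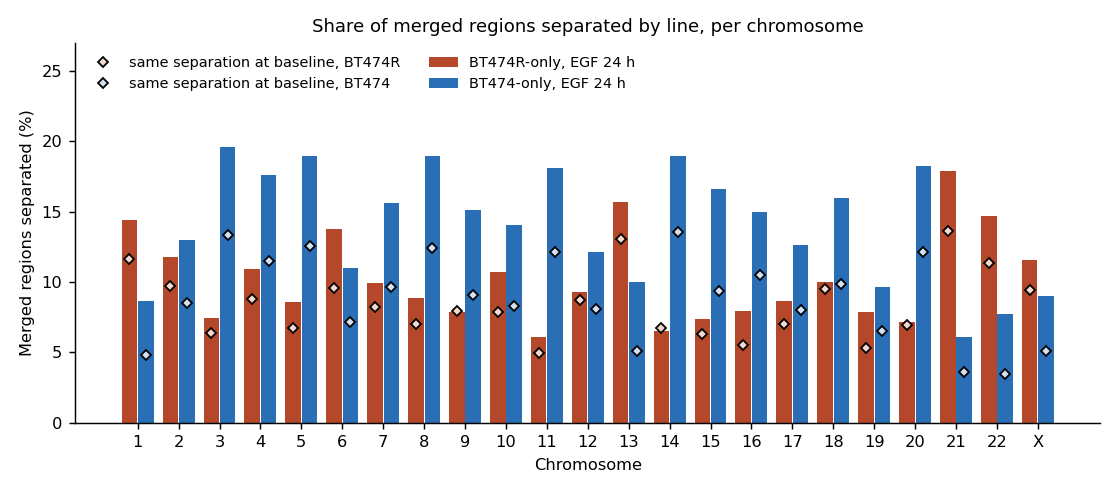
Percentage of merged regions on each chromosome that were BT474R-only or BT474-only after EGF for 24 h (bars), and the percentage of the same merged regions separated the same way at baseline (diamonds). Chromosomes 21, 13, 22 and 1 have the highest BT474R-only bars and chromosomes 3, 5, 8 and 14 the highest BT474-only bars, and the diamonds lie under the bars except for BT474R on chromosomes 9 and 14.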

How the data were processed

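ATAC-seq was made in 40 libraries, 20 groups of 2. Per the submitters' processing notes and the study's methods, reads were checked with FastQC, trimmed with Trim Galore 0.6.6, aligned with BBMap to hg38 (GRCh38.p13) and called with Genrich in each library, after mitochondrial and blacklisted reads were removed. The deposited peak lists give a score (area under the peak, at least 200), made by the authors, and −log10 p and q values, which were deposited but not tested here. The sources used here do not give the Genrich options or how reads with several matches were handled, and depth is unknown.

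Peaks were merged at an overlap of at least 1 bp on chromosomes 1 to 22 and X (25 to 32 peaks per list lay elsewhere). A region counts as open where a library has a peak. Promoters are within 1 kb of a GENCODE 44 transcript start, and each region took the gene whose protein-coding start was closest, if within 100 kb. Motifs were searched within 100 bp of the summit. Lines were compared by an exact permutation test (2 against 2) and by Fisher's exact test over 36 other libraries, Benjamini-Hochberg adjusted over all regions. The scripts were tested on simulated data.

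Named regions were the first 4 by mean rank in each direction and baseline class, of which the first 2 off chromosome 8 were to be shown with sequence, and some of these sequences and named genes are not reported here. Named genes were those of the lists with a separated promoter region (at most 8 a list) and the 10 with the most separated regions in each direction. Members and lists were chosen with earlier results of these data known. Alternatives were a score of at least 400, equal numbers of peaks, trimmed peaks, 50% cover, other promoter and motif windows, a replicate block and leaving out libraries. The scripts ran under Python 3.11.15 with scipy 1.17.1, pandas 2.3.3, numpy 2.4.6, matplotlib 3.10.9, samtools 1.23.1 and pysam 0.24.0.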

Additional observations from a re-analysis of the deposited data

Results flagged for a closer look

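At 24 h, EGF and vehicle libraries of the lines went opposite ways in few regions. In 11 regions a peak was present in both EGF and neither vehicle library of BT474R, and in neither EGF and both vehicle libraries of BT474. The reverse was found in 10 regions. These regions are singled out because EGF and vehicle libraries differed one way in one line and the opposite way in the other. Over all 66939 merged regions, 6023 (9.0%) gained and 442 (0.660%) lost a peak with EGF in BT474R. In BT474, 2959 (4.42%) gained and 163 (0.244%) lost one. Whether the 11 and 10 regions differ from what these shares alone would give was not tested. The nearest protein-coding starts of the 11 were those of DMRTB1, KMO, MZT2A, FOXL2, ARRDC3, LCA5, TRIB1, SLC7A7, MAX, NKD1 and SEPTIN4, and those of the 10 were EDN2, CRIM1, SMIM23, ZNF782, PCGF2, CACNG5, ONECUT2, RTN4R, CNKSR2 and GPC3. The peaks were mostly weak, with mean rank percentiles from 5.40 (RTN4R) to 39.3 (EDN2).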

How the results depend on the processing

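Of 77 alternative values, 49 stayed within the limits set for a change and 28 moved. The order of the classes turned with equal numbers of peaks (7708 BT474R-only against 7454 BT474-only), and the order of their baseline shares turned without S24_EGF replicate 1 (41.2% against 40.9%). With a score of at least 400, 4285 regions were BT474R-only and 6318 BT474-only, 34.8% of BT474R-only regions were separated the same way at baseline, 2239 were called over the other libraries, and promoter shares were 17.6% and 25.5%. With equal numbers of peaks, 56.3% of BT474-only regions were separated at baseline. With peaks trimmed to 200 bp either side of the summit, baseline shares were 39.5% and 44.02% and promoter shares 17.9% and 23.2%. With 50% cover the BT474R-only baseline share was 39.1%. Baseline and control libraries alone gave 2218 and 4957 calls. Promoters within 3 kb held 30.1% and 33.4%, and a motif window of 250 bp gave AP-1 shares of 38.3% and 19.4%. Leaving out each EGF library gave 7527 to 8321 BT474R-only and 10404 to 12058 BT474-only regions, baseline shares of 36.4% to 41.2% and 40.9% to 44.8%, and a difference in peaks of -4760 to -3622. Leaving out R0_baseline replicate 1 gave a BT474-only baseline share of 58.9%, and leaving out replicate 2 a BT474R-only share of 58.3%. The 12-list alternative gave AP-1 shares of 60.9% and 45.4%. Leaving out the 12 h libraries, each R0_baseline library or equalizing 12 lists was chosen after seeing the data. Where the settings themselves do not show it, the cause was not tested.

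Replicate numbers did not pair the libraries: deviations of same-numbered libraries correlated at -0.00857 to 0.0744 over 10 conditions. With a replicate block (exact McNemar test over 18 pairs), 3605 and 7266 regions were called, and for the difference in peaks of -4191 the permutation p was 0.5, the smallest this block allows. Unknown depth, 2 libraries a group and a score limit of 200 bound what the absence of a peak can show.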
